A study of Homo sapiens with 6 samples.

Results

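Pyrimidine and deoxynucleotide synthesis was followed through the messages of 9 enzymes: CAD, DHODH and UMPS, which build UMP, CTPS1 and CTPS2, which make CTP, RRM1 and RRM2, the ribonucleotide reductase subunits, and TYMS and DTYMK, which supply thymidine nucleotides. The members were set by name, as human probe sets assigned to 1 gene symbol among these 9, and the probe set whose mean log2 intensity over the 6 arrays was highest stood for each gene. All 9 of the 9 genes were found, with 20 of the 45278 human probe sets that carry 1 symbol, and all 9 passed the brightness filter that left 12198 of 18244 genes for testing. The arrays hold total RNA of P493-6, 1 human B-cell lymphoma line grown with serum, in which tetracycline holds a c-Myc transgene off. There were 3 groups of 2 arrays: low-Myc, with c-Myc released for 0 hours, mid-Myc, released for 1 hour, and high-Myc, released for 24 hours. The mid-Myc labels state 0 hours in 1 protocol field and 1 hour in another, and the latter was used because they call the c-Myc level of this group moderate. The question of the series is how expression compares between these states when synthetic ERCC RNAs, added in proportion to cell number, are used as the ruler.

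A proliferating cell has to enlarge its pool of pyrimidines for RNA and of all deoxynucleotides for DNA. The de novo route assembles the ring from glutamine, bicarbonate and aspartate and ends in UMP, which is phosphorylated to UTP and aminated to CTP. Ribonucleotide reductase then turns ribonucleotides into deoxynucleotides, thymidylate synthase methylates dUMP, and salvage kinases reuse nucleosides from outside or from breakdown. In B cells entering the cell cycle this supply is known to rise before and during S phase, and CAD is a classic target of c-Myc, which binds E-boxes with its partner MAX.

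Changes of the 9 genes are given on 2 log2 scales, and those of other genes at equal median unless stated. For the per-cell scale a curve was drawn through each array's ERCC probe sets and subtracted. The equal-median scale instead lines the arrays up at the median human probe set, as if all cells held equal RNA. A gene was called when its limma p-value, adjusted over the 12198 genes, was under 0.05. The adjusted p-values measure only the spread between duplicates, which the design text calls biological, and with duplicates the smallest exact permutation p is 0.333. The 31 ERCC probe sets in the 9 genes' range of mean intensity (70.4 to 2080) stood at -1.35 log2 in high-Myc against low-Myc as deposited and at -0.16 (SD 0.19) after the curve. After the curve the 1-hour value was -0.03 (SD 0.14). MYC itself was at 10472 and 10279 intensity in low-Myc arrays, 10031 and 9941 in mid-Myc arrays and 11888 and 11979 in high-Myc arrays, a change at 24 hours of 0.96 per cell (SE 0.03, limma adjusted p = 4.16e-10) and 0.34 at equal median. The per-cell value is close to the median of all genes, 0.97. At 1 hour MYC was at 0.13 per cell (limma adjusted p = 0.00282) and 0.095 at equal median (adjusted p = 0.0339), beside all-gene medians of 0.30 and 0.09. As deposited the arrays labelled mid-Myc were the lowest of the 6 for MYC. On both scales the changes of this probe set follow the order low, mid, high, by little at 1 hour, and as deposited its level does not. The group names are those of the labels. All 6 of the 7 B cell markers that had a probe set were above the filter. The summed intensity was 12203 to 19859 for B cell markers, 227 to 331 for T and NK cell markers and 521 to 1565 for monocyte markers. It was 425 to 641 for a list of epithelial, stromal, red cell and endothelial markers. All 4 sums, which are of intensities as deposited, were lowest in high-Myc. Per cell the median change of the tested markers at 24 hours was 0.11 for B cells and 0.41 for T and NK cells. It was 0.01 for monocytes and 0.59 for the last list, against 0.97 for all genes. Of the 5 monocyte markers, 3 were above the filter, among them LYZ, and CD14 and FCGR3A were below it. Of the T and NK cell markers 5 of 7 were above it, and of the last list 4 of 5. The ratio of 3′ to 5′ signal for ACTB, a sign of RNA and labelling quality, was 2.81 at 0 hours, 2.97 at 1 hour and 3.56 at 24 hours, against 1.17, 1.23 and 1.18 for GAPDH. Of 23 antigenomic background probe sets, 5 were brighter than the lowest group mean of DHODH, 3 than that of CAD and 2 than that of DTYMK, with at most 1 for the other members. The part of these in the results below was not tested. The 2 mid-Myc arrays carry sample numbers that do not follow on from the others, and if they were run apart, that and the 1-hour change cannot be told apart.

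The promoters of the 9 genes were searched for 3 motifs linked to growth and the cell cycle: the E-box of MYC and MAX, the CCAAT box and an E2F-like site. RefSeq sequences (GRCh38.p14) gave 12 windows of 300 bases, 250 before and 50 after a transcript start. The E-box was searched as CACGTG and the CCAAT box by its letters. The E2F-like site was any of TTTCGCGC, of TTTGGCGC, of TTTCCCGC or of TTTGCCGC. Both strands were read. CACGTG lay in the DHODH window only, CCAAT in 6 windows of 5 genes (CAD, DHODH, RRM1, RRM2 and DTYMK), and an E2F-like site in the TYMS window only. Among all 35116 windows of the same length, 7.26% held CACGTG, 34.6% held CCAAT and 3.31% held an E2F-like site. DHODH and TYMS are shown because they hold the only E-box and the only E2F-like match. The capitals mark an E-box and a CCAAT box in DHODH, which begin 159 and 22 bases before the start, and the reverse complement of TTTCCCGC in TYMS, which begins 39 bases before it.
DHODH, chr16:72008494-72008743, plus strand: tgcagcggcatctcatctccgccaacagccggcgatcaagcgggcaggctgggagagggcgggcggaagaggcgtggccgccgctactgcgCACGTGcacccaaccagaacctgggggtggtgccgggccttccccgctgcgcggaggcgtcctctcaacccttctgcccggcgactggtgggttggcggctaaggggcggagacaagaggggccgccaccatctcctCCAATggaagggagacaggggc
TYMS, chr18:657403-657652, plus strand: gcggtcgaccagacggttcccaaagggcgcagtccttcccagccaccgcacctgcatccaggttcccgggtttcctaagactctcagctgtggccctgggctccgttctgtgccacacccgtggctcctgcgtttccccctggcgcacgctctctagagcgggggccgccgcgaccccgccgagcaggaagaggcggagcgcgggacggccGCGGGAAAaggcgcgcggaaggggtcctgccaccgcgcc
RRM2 is shown because 1 of its windows held 3 CCAAT boxes, beginning 123, 93 and 66 bases before the start. The capitals mark CCAAT in 25 bases of the plus strand.
RRM2 first box, chr2:10122606-10122630: caaggcgcagCCAATgggaagggtc
RRM2 second box, chr2:10122636-10122660: catggcacagCCAATgggaagggcc
RRM2 last box, chr2:10122663-10122687: ggcaccaaagCCAATgggaagggcc
A match describes these letters in these windows and not binding of a factor, and sites outside the windows were not searched.

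The 3 genes of UMP synthesis stood far higher in high-Myc cells. CAD (chr2:27217369-27243943), the multifunctional enzyme that catalyses the opening steps of the route, was at 106 and 110 intensity in low-Myc arrays, 110 and 125 in mid-Myc arrays and 588 and 602 in high-Myc arrays. Both high-Myc arrays lay far above the other 4, and the low-Myc and mid-Myc arrays met as deposited. At 24 hours CAD had risen per cell by 3.68 (log2, SE 0.08, limma adjusted p = 7.7e-11), a 12.9-fold change. With arrays set to an equal median the change was 2.60 (SE 0.08, limma adjusted p = 1.01e-11), or 6.06-fold, which placed CAD at rank 42 of 12198 genes. In these bulk samples, a change in the number of cells that express a gene and a change in its RNA per cell cannot be told apart. The 1-hour change of CAD was 0.50 per cell (SE 0.08, limma adjusted p = 0.000435) and 0.27 at equal median (adjusted p = 0.0287).

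UMPS (chr3:124730452-124749273), which converts orotate to UMP, had intensities of 324 and 347 in low-Myc arrays, 287 and 272 in mid-Myc arrays and 1376 and 1492 in high-Myc arrays. The mid-Myc arrays were the lowest of the 6 as deposited and at equal median. Per cell they lay above both low-Myc arrays, at 7.993 and 7.912 log2 against 7.761 and 7.906. The change at 24 hours was 3.38 per cell (SE 0.07, limma adjusted p = 5.22e-11) and 2.23 at equal median (SE 0.07, limma adjusted p = 5.74e-12). At 1 hour UMPS was the 1 member not called on the per-cell scale, at 0.12 (95% interval -0.03 to 0.27, limma adjusted p = 0.148), and it was at -0.11 with arrays at equal median (adjusted p = 0.223). With the median of its probe sets it was called per cell at 0.20 (adjusted p = 0.043). From 1 to 24 hours the brightest UMPS probe set changed by 3.26 per cell and 2.35 at equal median, beside 3.18 and 2.33 for CAD. The other UMPS probe sets changed by 2.29 and 1.62 per cell and by 1.57 and 1.16 at equal median. The difference between UMPS and CAD was not tested.

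DHODH (chr16:72008744-72027659), the mitochondrial enzyme that oxidises dihydroorotate to orotate, was the dimmest of the 9. Its intensities were 56.6 and 47.3 (low-Myc), 52.1 and 47.4 (mid-Myc) and 136 and 136 (high-Myc). The low-Myc and mid-Myc values overlapped as deposited, though not per cell, and high-Myc lay apart. The change at 24 hours was 2.40 per cell (SE 0.11, limma adjusted p = 9.8e-09) and 1.53 at equal median (SE 0.12, limma adjusted p = 3.98e-08), the smallest of the 3 UMP genes. At 1 hour it was called per cell at 0.29 (limma adjusted p = 0.0383), and that call was lost without low-Myc replicate 2 (0.20, adjusted p = 0.188), without mid-Myc replicate 1 (0.24, adjusted p = 0.162) and without mid-Myc replicate 2 (0.36, adjusted p = 0.0503). It was also lost with no filter (adjusted p = 0.0532) and with only the 2 groups compared in the fit (adjusted p = 0.0815).

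The genes of the CTP synthases, which aminate UTP and of which CTPS1 is the form known to be needed for lymphocyte proliferation, differed in response. CTPS1 (chr1:40979696-41012565) was at 216 and 229 intensity in low-Myc arrays, 222 and 220 in mid-Myc arrays and 1079 and 1091 in high-Myc arrays. CTPS2 (chrX:16587999-16712910) was at 215 and 220 in low-Myc arrays, 222 and 203 in mid-Myc arrays and 261 and 243 in high-Myc arrays. The high-Myc arrays were the highest for both, far apart from the rest for CTPS1 and by a small margin for CTPS2.

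CTPS1 rose by 3.57 per cell at 24 hours (SE 0.06, limma adjusted p = 2.62e-11) and by 2.43 at equal median (SE 0.06, limma adjusted p = 1.96e-12). CTPS2 rose by 1.45 per cell (SE 0.07, limma adjusted p = 1.67e-08) and by 0.35 at equal median (SE 0.07, limma adjusted p = 0.000667), the smallest change of the 9 on either scale. Its equal-median call was lost with quantile normalization (0.16, adjusted p = 0.068) and with arrays centred on the tested genes (0.15, adjusted p = 0.0786). The difference within each array, CTPS1 minus CTPS2, does not depend on how arrays are centred, and set to a low-Myc mean of 0 it was -0.03 and 0.03 in low-Myc arrays, -0.04 and 0.08 in mid-Myc arrays and 2.01 and 2.13 in high-Myc arrays. CTPS1 thus gained 2.07 log2 on CTPS2 at 24 hours, or 4.21-fold, with 1.99 to 2.16 over the 4 pairings of arrays (exact permutation p = 0.333, the smallest possible, two-sided). With the median of each gene's probe sets the gain was 1.41. At 1 hour the gain was 0.02, with pairings from -0.06 to 0.11. Per cell both were called higher at 1 hour, CTPS1 by 0.38 (limma adjusted p = 0.00039) and CTPS2 by 0.36 (limma adjusted p = 0.00166), and neither was called at equal median (adjusted p = 0.121 and 0.247). With the second brightest probe sets the per-cell call of CTPS2 was lost (0.15, adjusted p = 0.254), and CTPS1 was called at equal median (0.24, adjusted p = 0.0204).

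Both subunits of ribonucleotide reductase rose by about the same amount. RRM1 (chr11:4094685-4138932), the large subunit with the catalytic and regulatory sites, was at 407 and 473 intensity in low-Myc arrays, 418 and 396 in mid-Myc arrays and 1507 and 1442 in high-Myc arrays. RRM2 (chr2:10122568-10211010), the small subunit that carries the radical and is known to be made in S phase, was at 376 and 421 in low-Myc arrays, 363 and 402 in mid-Myc arrays and 1334 and 1280 in high-Myc arrays. For both genes the low-Myc and mid-Myc arrays overlapped as deposited and both high-Myc arrays stood apart. Per cell the low-Myc and mid-Myc arrays did not overlap for either gene.

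RRM1 rose by 3.01 per cell at 24 hours (SE 0.08, limma adjusted p = 2.04e-10) and by 1.89 at equal median (limma adjusted p = 3.31e-11). RRM2 rose by 3.0 per cell (SE 0.07, limma adjusted p = 1.6e-10) and by 1.86 at equal median (limma adjusted p = 6.46e-11). The within-array difference RRM2 minus RRM1 moved by -0.03 log2 at 24 hours, with pairings from -0.06 to -0.002 (exact permutation p = 0.333), which does not show that the genes act alike. With the median of each gene's probe sets it was -0.12. At 1 hour RRM2 was called per cell at 0.32 (limma adjusted p = 0.00401) and RRM1 at 0.26 (limma adjusted p = 0.014), while at equal median they were at 0.09 and 0.04 and not called. The 1-hour call of RRM1 was lost without low-Myc replicate 1 (0.13, adjusted p = 0.101) and without mid-Myc replicate 1 (0.22, adjusted p = 0.0891), and with no variance trend (adjusted p = 0.0558).

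The thymidylate genes rose by values between those of DHODH and the reductase subunits. TYMS (chr18:657653-673578), thymidylate synthase, which methylates dUMP with a folate cofactor, was the brightest of the 9 on these probe sets. Its intensities were 1498 and 1453 (low-Myc), 1508 and 1459 (mid-Myc) and 4179 and 4042 (high-Myc). DTYMK (chr2:241675747-241686815), the kinase that phosphorylates dTMP, was at 167 and 163 in low-Myc arrays, 170 and 179 in mid-Myc arrays and 490 and 459 in high-Myc arrays. The high-Myc arrays of both genes lay well above the rest, and only for DTYMK did the mid-Myc arrays lie above both low-Myc arrays as deposited.

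TYMS rose by 2.55 per cell at 24 hours (SE 0.04, limma adjusted p = 1.69e-11) and by 1.62 at equal median (limma adjusted p = 3.02e-12). DTYMK rose by 2.77 per cell (SE 0.06, limma adjusted p = 9.09e-11) and by 1.66 at equal median (limma adjusted p = 1.6e-10). Within arrays at equal median, TYMS minus DTYMK moved by -0.04 log2, with pairings from -0.07 to -0.01 (exact permutation p = 0.333). The size depended on the scaling, with -0.22 after the ERCC curve and -0.13 with quantile normalization. At 1 hour both were called on both scales, TYMS at 0.30 per cell (limma adjusted p = 8.14e-05) and 0.16 at equal median (adjusted p = 0.0167), and DTYMK at 0.47 (limma adjusted p = 0.000145) and 0.23 (adjusted p = 0.0295). The 3 equal-median calls at 1 hour, of CAD, TYMS and DTYMK, were lost with quantile normalization, with cyclic loess and with arrays centred on the tested genes, where TYMS was at -0.05 with the first and -0.04 with the second.

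**Figure D1:**
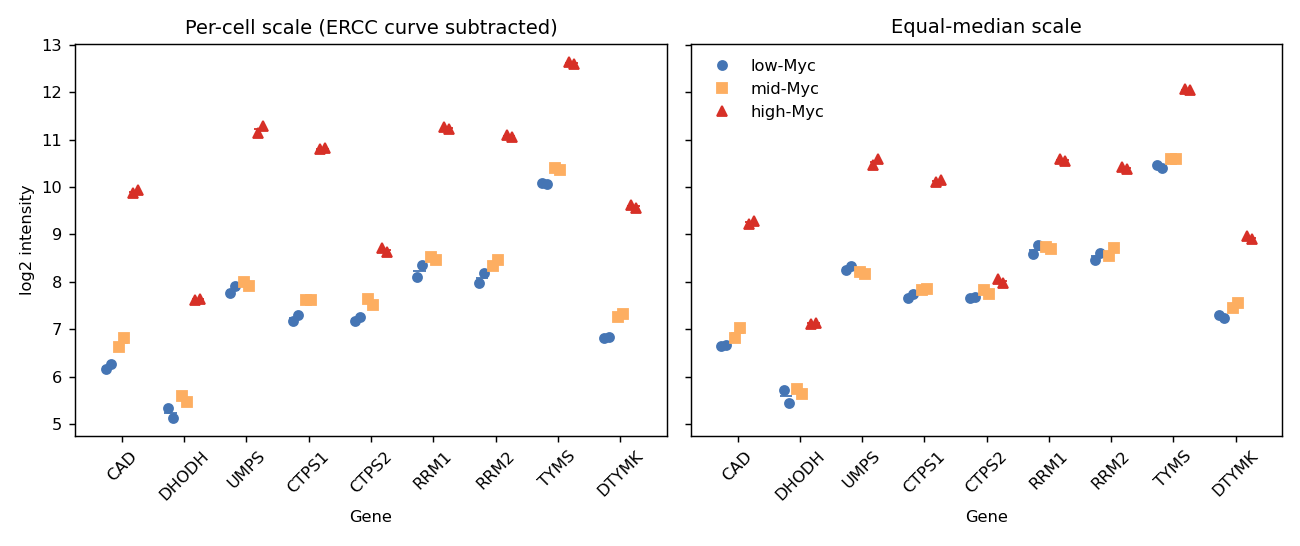
Log2 intensity (vertical axis) of the 9 genes (horizontal axis) in each of the 6 arrays on the per-cell scale (left) and the equal-median scale (right); points are arrays and short bars the group means. Both high-Myc arrays lie above the other 4 for each gene on both scales, by the smallest margin for CTPS2 at equal median, while low-Myc and mid-Myc arrays lie close together.

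Read as a set, the 9 genes rose together at 24 hours, and each lay above the median change of all genes on both scales. In high-Myc against low-Myc arrays all 9 were called higher per cell, with a median change of 3.0 log2, where 90.8% of all tested genes were called higher and the median of all genes was 0.97. At equal median all 9 were again called higher, with a median of 1.86, where 37.7% of all genes were called higher and the median was 0.05. In high-Myc against mid-Myc cells, which share the high-Myc arrays with that comparison, all 9 were called higher per cell, by 1.10 (CTPS2) to 3.26 (UMPS), against 81.7% of all genes. At equal median they were also all called, by 0.23 (CTPS2, limma adjusted p = 0.0113) to 2.35 (UMPS), against 33.3% of all genes. The CTPS2 call there was lost without mid-Myc replicate 2 (0.19, adjusted p = 0.0937), without high-Myc replicate 1 (0.19, adjusted p = 0.0853), with quantile normalization (0.17, adjusted p = 0.0585) and with arrays centred on the tested genes (0.15, adjusted p = 0.0894).

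At 1 hour the 9 genes moved about as far as genes in general. Per cell 8 of 9 were called higher, all but UMPS, with a median of 0.32 against 0.30 for all genes, and 62.4% of all genes were called higher. These calls all rest on the same ERCC curve of each array, and the ERCC probe sets in range stood at -0.40 as deposited. At equal median 3 of 9 were called higher, with a median of 0.12 against 0.09, and 25.7% of all genes were called higher. At equal median that share of members lies near the background. Without low-Myc replicate 1 only 1 of these 3 limma calls was made, and without low-Myc replicate 2 or mid-Myc replicate 2 there were 0, where 4 and 1 members had an unadjusted p under 0.05. In the values as deposited the only 1-hour call among the 9 was UMPS, at -0.26 (limma adjusted p = 0.0145).

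**Figure D2:**
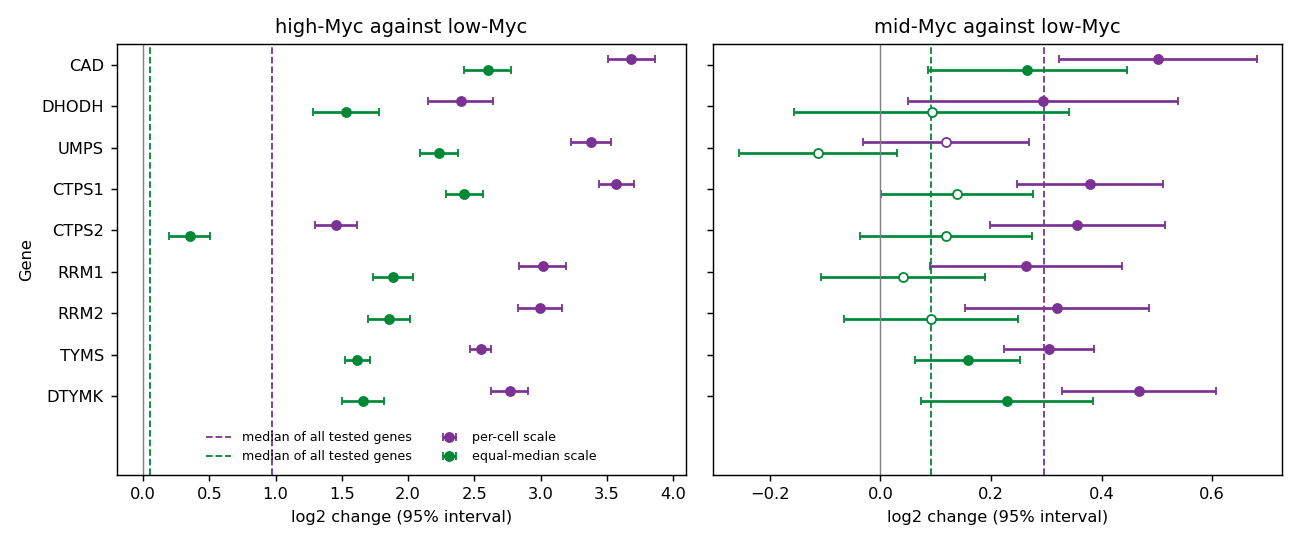
Log2 change (horizontal axis) of the 9 genes (vertical axis) in high-Myc against low-Myc (left) and mid-Myc against low-Myc (right), with 95% intervals from limma; filled points were called, open points were not, and dashed lines give the median of all tested genes on each scale. At 24 hours the change runs from 0.35 (CTPS2) to 2.60 (CAD) at equal median; at 1 hour it runs from -0.11 (UMPS) to 0.27 (CAD), around the all-gene median.

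The other probe sets of these genes agreed in direction at 24 hours and not in size. There were 11 of them, for 6 genes, and all 11 shared the sign of the brightest probe set in high-Myc against low-Myc on both scales. UMPS differed most: its brightest probe set changed by 3.38 per cell, and the others, at a mean of 69.6 and 33.6 intensity in low-Myc arrays, changed by 2.49 and 1.55. The other CTPS1 probe sets changed by 2.28 to 3.0 per cell and the other CTPS2 probe set by 1.29, so the order of these 2 genes did not depend on the probe set. The other RRM2 probe set changed by 2.91 and the other TYMS probe set by 2.89. At 1 hour 10 of the 11 shared the sign of the brightest probe set per cell and 7 of 11 did at equal median.

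**Figure D3:**
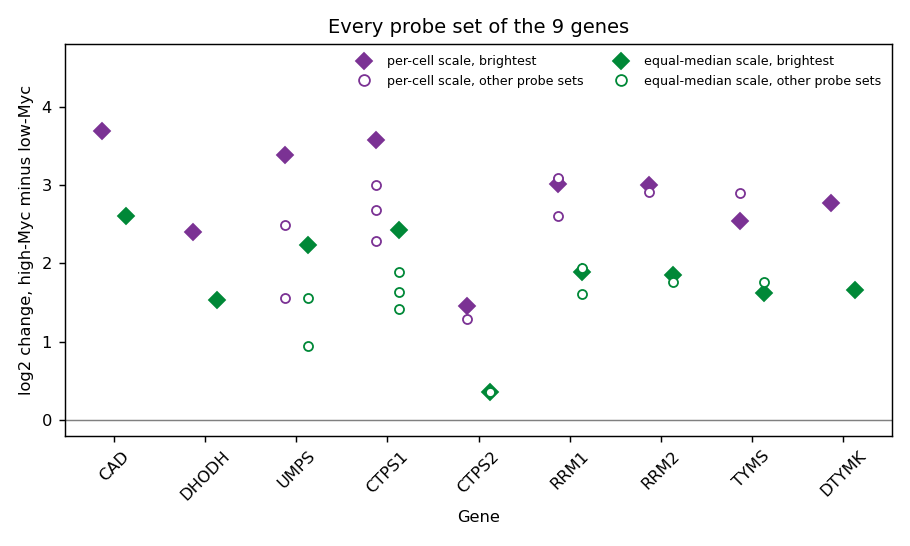
Log2 change in high-Myc against low-Myc (vertical axis) of each of the 20 probe sets of the 9 genes (horizontal axis) on the per-cell scale (purple) and the equal-median scale (green); diamonds are the brightest probe set of a gene and open circles the others. All probe sets lie above 0, the CTPS2 ones lie lowest at equal median, and the UMPS ones spread most, from 1.55 to 3.38 per cell.

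The genes around the 9 in the pathway did not move as 1 block. At equal median, 5 of 9 tested genes of uridine and cytidine salvage and phosphorylation were called higher at 24 hours and 4 were not called, with a median of 0.25, where 37.7% of all genes were called higher, and 3 further listed genes were not tested. UCK2, a uridine-cytidine kinase, rose from a mean of 157 to 569 intensity, by 2.00 log2 (limma adjusted p = 8.99e-11). Its second brightest probe set, however, was at 0.17 (adjusted p = 0.349). NME4, a mitochondrial nucleoside diphosphate kinase, rose by 1.40, CMPK1, the UMP-CMP kinase, by 0.43 and NME3 by 0.39. Per cell all 9 were called higher, where 90.8% of all genes were.

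Of 10 tested genes that supply thymidine and deoxynucleosides, 5 were called higher and 2 lower at equal median, with a median of 0.11, where 37.7% of all genes were called higher and 26% lower. Per cell 9 of the 10 were called higher, where 90.8% of all genes were, and CMPK2 was not called. DUT, the dUTPase that makes dUMP for thymidylate synthase, rose by 2.19 (limma adjusted p = 2.33e-12), with 615 and 574 intensity in low-Myc and 2499 and 2416 in high-Myc arrays. MTHFD1, a folate enzyme, rose by 1.73. Per cell these 2 genes rose by 3.25 and 2.88. SHMT1, a serine hydroxymethyltransferase that supplies folate-bound carbon, rose by 1.43, and its second brightest probe set was at -0.25 (adjusted p = 0.104). CMPK2, a mitochondrial kinase that is also induced by interferon, fell by 1.03 at equal median and was at 0.10 per cell (limma adjusted p = 0.06). Its second brightest probe set was at -0.29 at equal median (adjusted p = 0.159). TK1, the S phase thymidine kinase, and RRM2B, the reductase subunit that is induced by p53 and serves cells outside S phase, were picked after their values were seen. TK1 rose by 0.87 at equal median and by 2.0 per cell. RRM2B fell by 0.58, opposite to RRM2, but on the per-cell scale it rose by 0.54 (limma adjusted p = 1.03e-05), a call lost with the median of its probe sets (0.082, adjusted p = 0.573).

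Breakdown genes ran mostly the other way at equal median: 6 of 10 tested were called lower, where 26% of all genes were, and 3 were called higher, with a median of -0.41. NT5E, the surface nucleotidase CD73, had 1018 and 958 intensity in low-Myc and 275 and 281 in high-Myc arrays and fell by 1.69 (limma adjusted p = 2.41e-10). UPB1, which completes pyrimidine catabolism, fell by 1.40. DCTPP1, which hydrolyses dCTP and modified forms of it, rose by 2.16 and NT5M, a mitochondrial deoxynucleotidase, by 1.36. SAMHD1, the dNTP hydrolase of resting cells, was picked after its value was seen and fell by 0.62 at equal median, though per cell it rose by 0.53 (limma adjusted p = 1.18e-05). Per cell 8 of the 10 were called higher, where 90.8% of all genes were, and 2, NT5E (-0.56) and UPB1 (-0.32), lower, where 2.53% of all genes were called lower. The UPB1 call there was lost with its second brightest probe set (-0.02, adjusted p = 0.888).

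Of 8 genes for ribose phosphate supply and nucleoside transport, 5 were called higher and 1 lower at equal median, with a median of 0.46, where 37.7% of all genes were called higher and 26% lower. Per cell all 8 were called higher, where 90.8% of all genes were. PRPS2 and PRPS1, the synthetases of the ribose phosphate donor PRPP, rose by 2.25 and 1.25. SLC29A1, an equilibrative nucleoside transporter, rose by 0.57, and its second brightest probe set was at 0.10 (adjusted p = 0.49). SLC25A33, a mitochondrial pyrimidine nucleotide carrier, was at 220 and 204 intensity in low-Myc arrays, 306 and 313 in mid-Myc arrays and 563 and 554 in high-Myc arrays, and its groups did not overlap. It rose by 1.54 at 24 hours and by 0.69 at 1 hour (limma adjusted p = 1.44e-05), beside at most 0.27 for the 9 synthesis enzymes, a difference that was not tested. Side by side with the 9, de novo purine synthesis had 9 of 9 tested genes called higher at equal median with a median of 2.03, and replication fork and licensing genes 16 of 16 with a median of 1.82, where 37.7% of all genes were called higher.

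**Figure D4:**
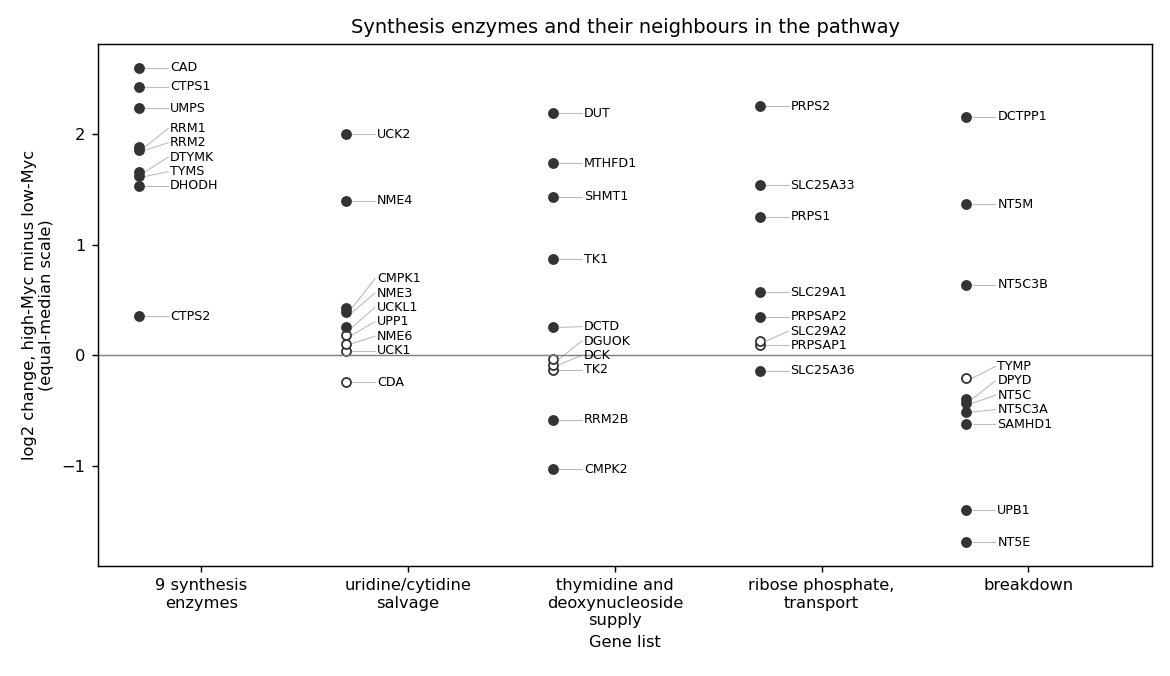
Log2 change in high-Myc against low-Myc at equal median (vertical axis) of the 9 synthesis enzymes and the tested genes of 4 neighbouring lists (horizontal axis); filled points were called and open points were not. The synthesis enzymes apart from CTPS2 lie between 1.53 and 2.60, while each neighbouring list spreads from near 2 to below 0.

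The genes whose 6-array profiles came nearest to each member were found by Euclidean distance between mean-centred log2 values at equal median, over 6 arrays. CAD was nearest to PPAT, the opening enzyme of purine synthesis (distance 0.13), and to PA2G4 (0.14). CTPS1 was nearest to UHRF1 (0.086) and SLC39A14 (0.11), and UMPS to MCM10 (0.18) and CISD1 (0.21). RRM2 was nearest to MTPAP (0.097) and GMPS (0.098), and RRM1 to KBTBD6 (0.088) and URB1 (0.11). TYMS was nearest to ECI1 (0.065) and MMAB (0.072), DTYMK to TIMM13 (0.070) and TIMM23 (0.079), DHODH to PFDN2 (0.087) and SLC38A5 (0.10). CTPS2 was nearest to NCAPD2 (0.059) and THOC5 (0.065), which both changed by 0.35 at 24 hours. With 3 groups of 2 arrays, many genes share such a profile, and the distances describe likeness only.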

How the data were processed

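Intensities (linear, per probe set) were deposited as MAS5 values of the authors, as the submitters' processing notes name it, and its version and scaling target are not given in the sources read. Labelling used 100 ng of total RNA, and ERCC RNAs were added by cell number, per the labels' protocols. Among 49293 human probe sets, those with 1 symbol (45278) were used, and 1333 with several and 2682 with none were left out. Log2 values were taken per cell (a robust loess fit to 100 ERCC probe sets on each array, span 0.7, degree 1) and at equal median. Genes whose brightest probe set was above the 40th percentile of human probe sets (33.8 intensity) were tested two-sided with limma 3.58.1 (R 4.3.3), in 1 trended fit of all 6 arrays with Benjamini-Hochberg adjustment. SE values come from that fit, with 9.21 (per cell) and 12.9 (equal median) degrees of freedom. The number of arrays limits the precision. The steps were tested on simulated data in which genes were changed in high-Myc only, so the mid-Myc comparisons were not covered. In the per-cell simulation all human probe sets also rose, so a call there did not separate a changed gene from the common rise. The equal-median simulation held no common rise. The 9 genes and the lists were chosen with earlier results of these data known. Named genes were the 9, MYC, up to 4 genes per list with the largest called equal-median change at 24 hours among non-overlapping arrays, and the 2 nearest profiles per member. Alternatives covered filter, pseudocount, probe set, scaling, variance trend, groups in the fit, replicate block and each array left out. Those for the lists were set after seeing the data.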

Additional observations from a re-analysis of the deposited data

How the results depend on the processing

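At 24 hours 8 or 9 members were called on both scales under all 16 alternatives, against low-Myc and against mid-Myc alike. DHODH was not tested with the 60th percentile filter. The replicate numbers did not pair the arrays (correlations of 0.002, -0.003 and -0.002 between same-numbered arrays), and with the replicate block the called members were 9 of 9 at 24 hours on both scales, 8 at 1 hour per cell and 3 at equal median.

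The 1-hour results depended on the processing. Per cell, the values as deposited called 1 member, UMPS, lower, in place of 8 higher, and put DHODH at -0.057, UMPS at -0.26, CTPS1 at -0.011, CTPS2 at -0.032, RRM1 at -0.11 and RRM2 at -0.059. Leaving out 1 array gave 6 to 7 called per cell. At equal median limma called 0 with log2(value + 16) and 0 without the variance trend, where 4 and 3 had an unadjusted p under 0.05, and 1 each, UMPS lower, with quantile normalization, cyclic loess, centring on the tested genes and the values as deposited. Leaving out 1 array gave 0 to 2. Members that turned at equal median were CTPS2 (-0.063) and RRM2 (-0.069) with the second brightest probe set and RRM1 (-0.096) with the median of probe sets. With quantile normalization CTPS2 (-0.0073), RRM1 (-0.12), RRM2 (-0.070) and TYMS (-0.050) turned, and with cyclic loess CTPS1 (-0.0023), RRM1 (-0.12), RRM2 (-0.069) and TYMS (-0.044). Centring on the tested genes turned DHODH (-0.022), RRM1 (-0.075) and RRM2 (-0.024). As deposited, DHODH (-0.057), CTPS1 (-0.011), CTPS2 (-0.032), RRM1 (-0.11) and RRM2 (-0.059) turned. With arrays left out in turn RRM1 ran from -0.061 to 0.14 and DHODH from -0.045 to 0.23. The cause of these turns was not tested.

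The within-array difference CTPS1 minus CTPS2 kept its sign at 24 hours under every alternative run and ran from -0.038 to 0.079 at 1 hour with arrays left out. TYMS minus DTYMK turned in high-Myc against low-Myc, to 0.032 with log2(value + 16) and 0.031 with the median of probe sets. It grew there to -0.22 with the ERCC curve and -0.13 with quantile normalization. In high-Myc against mid-Myc it was -0.058 with the ERCC curve and -0.032 to 0.088 with arrays left out. With arrays left out RRM2 minus RRM1 ran from -0.062 to 0.16 at 1 hour and from -0.19 to 0.031 from 1 to 24 hours, where the median of probe sets gave -0.23. In the values as deposited CMPK2 (-1.17), RRM2B (-0.72) and SAMHD1 (-0.76) were lower at 24 hours, and SHMT1 was at -0.25 at equal median with its second brightest probe set.

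Of the genes called at equal median at 24 hours, 59.2% were higher. The share was 47.2% with quantile normalization, 51.7% with cyclic loess and 41.5% centred on the tested genes. At 1 hour it was 88.3%, against 44.4%, 50.5% and 58.6%. With the last of these the all-gene median went from 0.05 to -0.15 at 24 hours and from 0.09 to -0.02 at 1 hour.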
